A study of Mus musculus with 21 samples.

Results

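The genes described here are 5 core factors of pluripotency in mouse embryonic stem cells: Pou5f1 (which encodes OCT4), Sox2, Nanog, Sall4 and Utf1. They were picked by symbol from the deposited expression table. All 5 were among its 20900 genes, and all 5 were among the 14666 genes with enough signal to be tested. The expression of each was followed over 7 groups of 3 RNA-seq libraries, 21 in all, made from poly(A) RNA. The cells were E14, a line of strain 129 kept with serum and leukaemia inhibitory factor (LIF), and no genetic change was named for any group. One group was untreated (0 h), 3 groups received BMH-21 and 3 received CX-5461, both at 1 µM and for 2, 4 or 8 h, given in fresh medium the day after plating. Both compounds block RNA polymerase I, which makes the ribosomal RNA precursor. The same untreated libraries were the control for both inhibitors, and there were no time-matched untreated cells.

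In embryonic stem cells, OCT4 and SOX2 bind DNA side by side at composite sites and drive many genes of the undifferentiated state, among them their own genes and Nanog. NANOG is a homeodomain protein that stabilises this state, SALL4 is a zinc finger protein that works with OCT4 and NANOG, and UTF1 is a chromatin protein whose gene is a classical OCT4 and SOX2 target. Cells lose most of these transcripts when they leave the pluripotent state.

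The DNA letters that OCT4 and SOX2 read are shown for the 2 promoters that held an octamer core, since these factors are themselves members of the set. RefSeq promoter windows (GRCm38.p6, 250 bases before to 50 after a start site) were found for 4 of the 5 genes, Pou5f1, Sox2, Nanog and Utf1. They were searched on both strands for the octamer core TTTGCAT, for ACAAT as a SOX core, and for the 2 words joined by 1 free base, TTTGCATNACAAT, which contains both shorter words. Capitals mark the matches in the stretches below, printed on the plus strand, which is the strand of both genes.
Nanog, chr6:122707394-122707446: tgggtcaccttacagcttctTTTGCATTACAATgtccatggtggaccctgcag
Sox2, chr3:34649876-34649922: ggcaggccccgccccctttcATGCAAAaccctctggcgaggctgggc
Nanog has 2 overlapping windows that share 1 joined word, 75 to 63 bases before the start site at 122707489 and 151 to 139 bases before that at 122707565. The Sox2 window held the octamer core on the other strand, 99 to 93 bases before its start site at 34649995. The first Pou5f1 window (start 35506032) and the Utf1 window held none of the 3 words, and the second Pou5f1 window (start 35508807) held ACAAT alone. Of the 32851 RefSeq windows of this length, 4.63% held the octamer core, 31% held ACAAT and 8 windows of 6 genes, or 0.0244% of windows, held the joined word, both Nanog windows among them. A match is a description of these letters only.

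The genes lie on 5 chromosomes, given here in GRCm38 coordinates of GENCODE M21. Pou5f1 spans chr17:35506018-35510772 on the plus strand, Sox2 chr3:34650405-34652461 on the plus strand and Nanog chr6:122707489-122714633 on the plus strand. Sall4 spans chr2:168748332-168767943 on the minus strand and Utf1 chr7:139943789-139945112 on the plus strand. Sox2 is a gene with 1 annotated transcript and sits inside the longer noncoding Sox2ot (chr3:34104270-34682619) on the same strand, so a strand-aware count cannot separate reads from the stretch they share.

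The table gave log2 values, a normalised expression level on which a difference of 1 is a doubling. Reads recovered from it came to 46604397 to 62812641 per library, and the 5 genes held between 6380 reads (Utf1) and 80809 reads (Pou5f1) in any library, so counting error was small beside the spread between replicates. The deposited scale carried a factor per library from 0.832 to 1.375. Centring each library on its median took a common shift out of the differences from control: -0.08, -0.15 and -0.21 for the BMH-21 times in order, and -0.15, -0.16 and 0.22 for those of CX-5461. Values below are as deposited, with the centred value where it matters. RNA was taken from whole cultures, so fewer cells of a type and less RNA per cell cannot be told apart.

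Compared per length, the untreated cells held most Pou5f1. Its level was 720.5 ± 49.6 reads per kilobase of exon and 1000000 effective reads (SD, n = 3), against 367.8 ± 21.5 for Utf1, 314.3 ± 17.9 for Sox2, 228.8 ± 18.7 for Nanog and 77.0 ± 5.3 for Sall4. On the log2 scale, which is not corrected for length, the 5 genes stood between percentile 96.9 (Sall4) and 99.6 (Pou5f1) of the genes tested in these libraries, so all were abundant. No 2 neighbours in the order per length overlapped among the 3 libraries, Utf1 at 343.2 or more and Sox2 at 332.9 or less being the closest. At 8 h with BMH-21 the order was Pou5f1 at 374.9 ± 5.1, Sox2 at 138.8 ± 16.0, Utf1 at 84.3 ± 5.4, Nanog at 52.3 ± 4.0 and Sall4 at 28.2 ± 4.1. At 8 h with CX-5461 it was Pou5f1 at 564.9 ± 13.95, Sox2 at 288.7 ± 23.0, Utf1 at 226.7 ± 12.1, Nanog at 190.8 ± 9.4 and Sall4 at 62.3 ± 4.3. Sox2 and Utf1 had thus changed places with both inhibitors by 8 h, and again no neighbours overlapped.

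**Figure D1:**
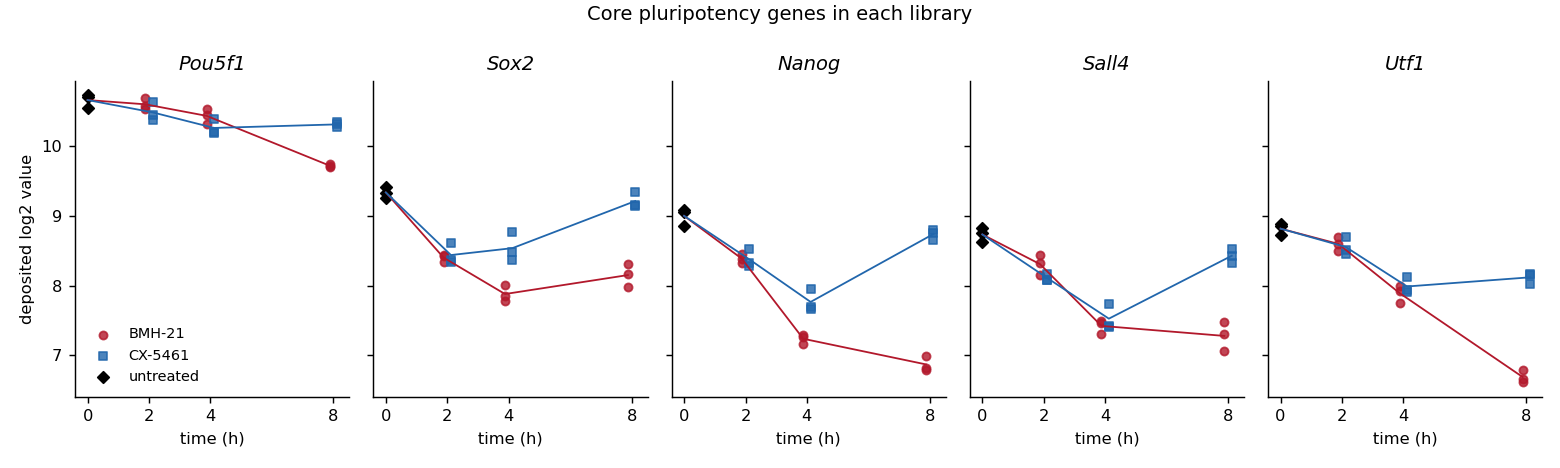
Deposited log2 value (y axis) of each gene in each of the 21 libraries against time in hours (x axis), with lines through the group means; untreated cells are black diamonds, BMH-21 red circles and CX-5461 blue squares. Nanog fell from between 8.86 and 9.08 to between 6.80 and 7.0 at 8 h of BMH-21, and was back between 8.66 and 8.80 at 8 h of CX-5461.

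Pou5f1, the POU factor on which the network depends, was the slowest to fall. The untreated libraries held log2 values of 10.71, 10.73 and 10.54, and the BMH-21 libraries 10.53, 10.68 and 10.58 at 2 h, 10.53, 10.32 and 10.45 at 4 h, and 9.72, 9.70 and 9.74 at 8 h. With CX-5461 they held 10.64, 10.37 and 10.44 at 2 h, 10.20, 10.39 and 10.19 at 4 h, and 10.34, 10.27 and 10.31 at 8 h. Both inhibitors overlapped the untreated values at 2 h, and all later libraries lay under them. The log2 change with BMH-21 was -0.06, -0.23 and -0.94 in the order of the times, each ± 0.10 (SE), and the last left 52.1% of the untreated level. Limma adjusted p-values were 0.74, 0.032 and 2.3e-16. With CX-5461 the changes were -0.18, -0.40 and -0.35 (limma adjusted p 0.15, 1.5e-04 and 1.4e-03). Ranked among the changes of all genes tested, from the largest fall up, Pou5f1 stood at percentile 20.8 at 8 h of BMH-21 and percentile 9.96 at 8 h of CX-5461.

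Some Pou5f1 calls rested on single libraries or on the scale. The 4 h BMH-21 change was -0.08 after centring (adjusted p 0.14) and lost its call in 9 of 17 alternatives. Among these were the fits without untreated replicate 1 (-0.20), untreated replicate 2 (-0.19), BMH-21 4 h replicate 2 (-0.17) or BMH-21 4 h replicate 3 (-0.24). The 2 h CX-5461 change passed the test, at -0.25, only without CX-5461 2 h replicate 1. The 4 h CX-5461 change was -0.24 after centring, -0.15 with median-ratio factors and, no longer called, -0.06 with quantile normalization (adjusted p 0.052). At 8 h of CX-5461 the change was -0.56 after centring and -0.18 with quantile normalization, against -0.35 as deposited. At 8 h of BMH-21 it was -0.58 with median-ratio factors and -0.30 with quantile normalization, still called, against -0.94.

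Sox2, the HMG-box partner of OCT4, fell most of the set at 2 h. The untreated libraries held 9.42, 9.33 and 9.26. With BMH-21 the log2 values were 8.34, 8.44 and 8.43 at 2 h, 8.01, 7.78 and 7.85 at 4 h, and 8.31, 7.98 and 8.16 at 8 h. With CX-5461 they were 8.61, 8.33 and 8.37 at 2 h, 8.37, 8.76 and 8.48 at 4 h, and 9.34, 9.16 and 9.14 at 8 h. Every treated library lay under the untreated ones except CX-5461 replicate 1 at 8 h. At 2 h Sox2 stood at 52.3% of its untreated level with BMH-21 and 53.7% with CX-5461, the 120th and 135th largest falls among the 14666 genes. At 4 h it stood at 36.4% with BMH-21 (adjusted p 4.1e-26), while CX-5461 left 57.5% (adjusted p 2.7e-11), a log2 change of -0.80 that was -0.37 with quantile normalization.

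By 8 h the difference of Sox2 from untreated cells with CX-5461 was -0.12 ± 0.10 (95% interval -0.33 to 0.08, limma adjusted p 0.33). Centring made it -0.34 (adjusted p 8.3e-07), median-ratio factors -0.24 (adjusted p 9.0e-05), and quantile normalization 0.09 (adjusted p 0.083). With BMH-21 the 8 h level was 44.0% of untreated, above that of 4 h by a log2 difference of 0.27 ± 0.10 (adjusted p 0.020), though the 8 h and 4 h libraries overlapped. After centring this difference was 0.33 (adjusted p 1.2e-06), with centred 8 h values of 8.22 or more and 4 h values of 7.99 or less, and it was 0.45 with median-ratio factors and 0.68 with quantile normalization. On the deposited scale the call was lost without BMH-21 4 h replicate 2 (0.22), BMH-21 4 h replicate 3 (0.26) or BMH-21 8 h replicate 1 (0.19). The 8 h change from untreated cells with BMH-21, -1.18, was -0.49 with quantile normalization and still called.

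Sox2ot, the noncoding gene around Sox2, was the only other row whose symbol began with that of a member and that overlapped it. Its mean log2 level was 1.72 ± 0.12 (SD, n = 3) in untreated cells. The BMH-21 means were 1.15, 0.73 and 1.32 at 2, 4 and 8 h, and those of CX-5461 0.74, 0.80 and 1.60. Its libraries held between 71 and 186 reads, against at least 12108 for Sox2. The lowest mean of Sox2ot fell at the same time as that of Sox2 with each inhibitor, 4 h with BMH-21 and 2 h with CX-5461, although the 2 h and 4 h values of Sox2ot with CX-5461 lay within their SDs (0.17 and 0.40).

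Nanog, the homeodomain factor, had the deepest fall of the set at 4 h of BMH-21 and, level with Sall4, at 4 h of CX-5461. Its untreated log2 values were 9.06, 9.08 and 8.86. The BMH-21 libraries held 8.32, 8.45 and 8.38 at 2 h, 7.30, 7.16 and 7.26 at 4 h, and 7.0, 6.82 and 6.80 at 8 h. The CX-5461 libraries held 8.53, 8.28 and 8.32 at 2 h, 7.69, 7.95 and 7.66 at 4 h, and 8.80, 8.66 and 8.76 at 8 h. None of the 18 treated values reached an untreated one. BMH-21 left 65.3%, 29.5% and 22.9% of the untreated level at the 3 times (adjusted p 5.8e-07, 3.9e-33 and 7.9e-41). CX-5461 left 65.0%, 42.5% and 83.5%, with a log2 change at 8 h of -0.26 ± 0.10 (adjusted p 0.028). That last call was lost without untreated replicate 1 (-0.23), untreated replicate 2 (-0.22), CX-5461 8 h replicate 2 (-0.22) or CX-5461 8 h replicate 3 (-0.27). Centring made the 8 h change -0.48 (adjusted p 1.9e-08), and quantile normalization -0.02 (adjusted p 0.69).

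Sall4, the zinc finger partner of OCT4 and NANOG, followed a course near that of Nanog with CX-5461. Untreated libraries held log2 values of 8.76, 8.82 and 8.62. With BMH-21 the values were 8.15, 8.44 and 8.33 at 2 h, 7.49, 7.47 and 7.30 at 4 h, and 7.48, 7.06 and 7.30 at 8 h. With CX-5461 they were 8.17, 8.07 and 8.07 at 2 h, 7.41, 7.74 and 7.43 at 4 h, and 8.53, 8.33 and 8.43 at 8 h. Here too every treated library was under the untreated range. BMH-21 left 74.4%, 40.3% and 36.5% of the untreated level at 2, 4 and 8 h (adjusted p 1.1e-03, 1.9e-22 and 6.8e-26). CX-5461 left 64.8%, 43.3% and 80.9% (adjusted p 6.8e-07, 5.5e-20 and 0.011). The last of these, a log2 change of -0.31, missed the threshold without untreated replicate 2 (-0.26), without CX-5461 8 h replicate 2 (-0.26) and with quantile normalization (-0.10, adjusted p 0.11), and was -0.52 after centring. Quantile normalization also made the 8 h BMH-21 change -0.85 in place of -1.45, and the 4 h CX-5461 change -0.80 in place of -1.21, both still called.

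Utf1, the OCT4 and SOX2 target, fell late and, with Nanog, ended lowest relative to its start at 8 h of BMH-21. Its untreated log2 values were 8.85, 8.88 and 8.72. With BMH-21 they were 8.50, 8.70 and 8.59 at 2 h, 8.00, 7.75 and 7.93 at 4 h, and 6.79, 6.61 and 6.67 at 8 h. With CX-5461 they were 8.70, 8.46 and 8.51 at 2 h, 7.94, 8.12 and 7.91 at 4 h, and 8.17, 8.03 and 8.15 at 8 h. No treated value reached the untreated range, although the highest 2 h library of each inhibitor, at 8.70, lay just under it. At 2 h the log2 change was -0.22 ± 0.10 with BMH-21 (adjusted p 0.13) and -0.26 ± 0.10 with CX-5461 (adjusted p 0.044). BMH-21 left 52.6% at 4 h and 22.9% at 8 h (adjusted p 1.9e-14 and 6.2e-41), and CX-5461 left 56.3% and 61.7% (adjusted p 3.2e-12 and 2.7e-09). The 8 h CX-5461 change of Utf1, -0.70 (-0.91 after centring), was the largest of the 5 genes at that point and the 262nd largest fall among all genes tested.

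Whether Utf1 passed the test at 2 h depended on the scale with both inhibitors, and on single libraries with CX-5461. The CX-5461 call was lost without untreated replicate 1 (-0.24), untreated replicate 2 (-0.23), CX-5461 2 h replicate 2 (-0.21) or CX-5461 2 h replicate 3 (-0.24), with median-ratio factors (-0.08, adjusted p 0.17) and with quantile normalization (-0.07, adjusted p 0.25). The 4 h CX-5461 change was -0.83 as deposited and -0.42 with quantile normalization (adjusted p 1.9e-08). After centring the 2 h change was -0.14 with BMH-21 (adjusted p 0.014) and -0.12 with CX-5461 (adjusted p 0.047).

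**Figure D2:**
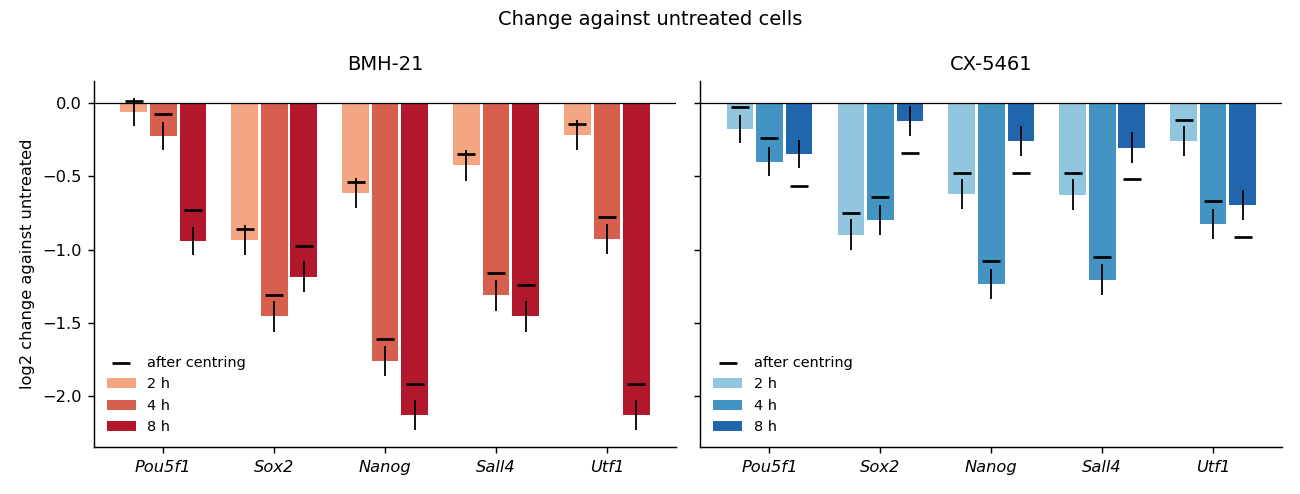
Log2 change against untreated cells (y axis) of the 5 genes at 2, 4 and 8 h (light to dark bars) with BMH-21 (left) and CX-5461 (right); error bars are SE from limma (3 libraries a group) and black dashes the change after centring. The 8 h bars run from -0.94 to -2.13 (BMH-21) and from -0.12 to -0.70 (CX-5461).

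The number of members past the test was read against the share of all genes tested that passed it. At 2 h of BMH-21, 3 of the 5 were lower (Sox2, Nanog and Sall4) where 11.2% of genes tested were lower and 8.48% higher. At 2 h of CX-5461, 4 of the 5 were lower (all but Pou5f1), against 20.5% lower and 7.45% higher. At 4 h all 5 were lower with each inhibitor, but so were 44.9% of all genes with BMH-21 and 51.2% with CX-5461, with 22.1% and 19.8% higher. At 8 h of BMH-21 all 5 were lower beside 56.9% of genes lower and 24.5% higher. At 8 h of CX-5461, 4 of 5 were lower (all but Sox2) beside 14.3% lower and 35.1% higher. None of the 5 rose against untreated cells in these 6 comparisons.

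The same counts after centring read 4, 4 and 5 of 5 lower with BMH-21, where 17.5%, 41.5% and 51.3% of all genes were lower, and 4, 5 and 5 with CX-5461, where 17.8%, 45.7% and 44.7% were. The scale moved the share of lower genes among those called from 67.1% to 56.3% at 4 h of BMH-21, from 73.3% to 53.1% at 2 h of CX-5461 and from 72.1% to 61.6% at 4 h. At 8 h of CX-5461 it moved that share from 28.9% to 60.4%.

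The speed of the fall separated the genes. Over the first 2 h the level of Sox2 changed by -0.47 log2 units per hour under BMH-21 and -0.45 under CX-5461, the steepest slopes of the set. By then 64.2% of its 4 h fall with BMH-21 was present. Nanog changed by -0.31 per hour with either inhibitor in that time, then by -0.57 per hour between 2 and 4 h of BMH-21 and by -0.31 with CX-5461. Sall4 was steeper in the second step with BMH-21, at -0.44 against -0.21 per hour, and near even with CX-5461, at -0.31 and -0.29. Utf1 had 23.6% of its 4 h fall at 2 h of BMH-21 and 31.7% at 2 h of CX-5461, and it still changed by -0.30 per hour from 4 to 8 h of BMH-21. The slope of Pou5f1 was -0.03 per hour in the first 2 h of BMH-21 and -0.18 per hour between 4 and 8 h.

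These steps were tested between times. From 2 to 4 h, 4 members fell with BMH-21, where 34.8% of genes fell: Nanog by 1.15 (adjusted p 4.1e-19), Sall4 by 0.88, Utf1 by 0.71 and Sox2 by 0.52. Pou5f1 differed by -0.17 (adjusted p 0.14). With CX-5461, 4 members fell, where 26.8% of genes did: Nanog by 0.61 (adjusted p 2.2e-07), Sall4 by 0.58, Utf1 by 0.57 and Pou5f1 by 0.22 (adjusted p 0.048). The Pou5f1 step was not called without CX-5461 2 h replicate 1 (-0.15), CX-5461 2 h replicate 3 (-0.25), CX-5461 4 h replicate 1 (-0.19) or CX-5461 4 h replicate 3 (-0.19), and was -0.04 with quantile normalization (adjusted p 0.23). Sox2 moved by 0.10 with CX-5461 (95% interval -0.11 to 0.30, adjusted p 0.45), and by 0.11 after centring (adjusted p 0.043) and 0.33 with quantile normalization (adjusted p 2.7e-06). Quantile normalization left the Sox2 step with BMH-21 at -0.33, and the Sall4 and Utf1 steps with CX-5461 at -0.37 and -0.35, all still called.

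From 4 to 8 h the members split. With BMH-21, 3 went on falling, where 37.8% of genes fell and 18.6% rose: Utf1 by 1.20 (adjusted p 5.9e-20), Pou5f1 by 0.71 (adjusted p 2.5e-10) and Nanog by 0.37 (adjusted p 1.4e-03). Sox2 rose by 0.27, as given above, and Sall4 differed by -0.14 (95% interval -0.35 to 0.07, adjusted p 0.24). The Nanog step was -0.19 with median-ratio factors and lost its call with quantile normalization (-0.09, adjusted p 0.13). Quantile normalization made the Pou5f1 step -0.22, still called, and turned that of Sall4 to 0.16 (adjusted p 0.012). With CX-5461, 3 rose: Nanog by 0.97 ± 0.10 (adjusted p 9.8e-15), Sall4 by 0.90 ± 0.11 (adjusted p 1.0e-12) and Sox2 by 0.67 ± 0.10 (adjusted p 1.9e-08). All 3 libraries at 8 h lay above all 3 at 4 h for each of these genes, and the share of all genes doing so was not counted. On this scale 58.8% of all genes rose between those times, and the median gene by 0.34.

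After centring, these 3 rises were 0.60, 0.53 and 0.30 (adjusted p 1.2e-09, 1.8e-08 and 9.2e-06), where 25.8% of genes rose and 32.0% fell. Pou5f1 and Utf1 differed by 0.05 and 0.13 as deposited (adjusted p 0.65 and 0.25) and by -0.32 and -0.24 after centring (adjusted p 3.3e-06 and 6.0e-05). The share of lower genes among those called went from 7.62% to 55.3%. Put as a recovery, at 8 h of CX-5461 Sox2 had regained 84.5% of its 4 h fall, Nanog 78.9%, Sall4 74.7%, Utf1 15.8% and Pou5f1 12.7%. After centring the shares were 47.0% for Sox2, 55.8% for Nanog and 50.3% for Sall4, and Utf1 and Pou5f1 lay lower at 8 h than at 4 h.

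**Figure D3:**
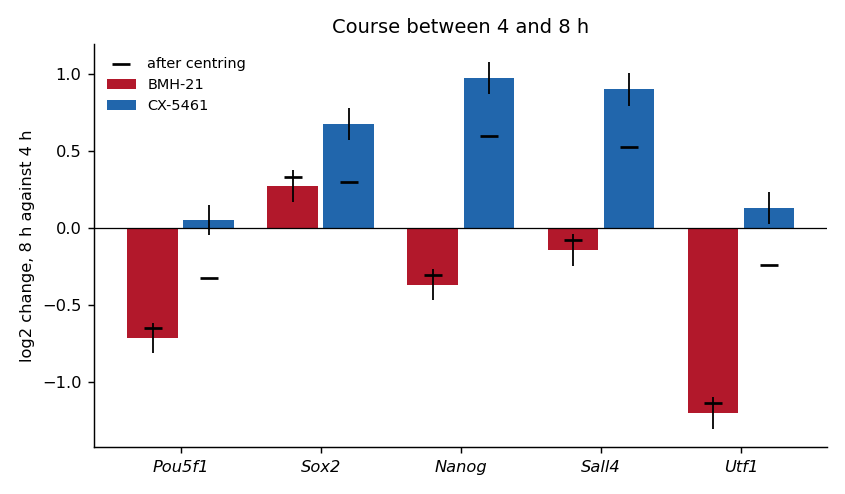
Log2 change from 4 to 8 h (y axis) for the 5 genes with BMH-21 (red) and CX-5461 (blue); error bars are SE from limma (3 libraries a group) and black dashes the change after centring. The Nanog bars stand at -0.37 (BMH-21) and 0.97 (CX-5461), and the CX-5461 bars of Pou5f1 (0.05) and Utf1 (0.13) turn negative after centring.

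The inhibitors were compared directly at the same concentration and time, 15 comparisons, of 5 genes at 3 times, with p-values adjusted over all genes tested. At 2 h 0 of the 5 genes passed limma's test, and 0 had an unadjusted p under 0.05, where 1.52% of all genes were lower with BMH-21 and 2.47% higher. The BMH-21 minus CX-5461 differences were 0.12 for Pou5f1 (95% interval -0.08 to 0.31), -0.04 for Sox2 (-0.24 to 0.17), 0.01 for Nanog (-0.20 to 0.21), 0.20 for Sall4 (-0.01 to 0.41) and 0.04 for Utf1 (-0.16 to 0.25). For each gene the 2 h libraries of the inhibitors overlapped. The split of the genes called at 2 h moved from 38.1% lower to 49.2% on centring.

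At 4 h, 2 of the 5 genes were lower with BMH-21, where 8.49% of all genes were. Sox2 was lower by a log2 difference of -0.66 ± 0.10 (adjusted p 3.2e-07) and Nanog by -0.53 ± 0.10 (adjusted p 3.8e-05), with no overlap between the libraries. Sall4 differed by -0.10 (95% interval -0.31 to 0.10), Utf1 by -0.10 (-0.30 to 0.11) and Pou5f1 by 0.17 (-0.02 to 0.36), and their libraries overlapped. Without CX-5461 4 h replicate 2 the Sall4 difference was 0.0016. After centring Pou5f1 was higher with BMH-21 by 0.16 (adjusted p 6.7e-03).

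At 8 h all 5 genes were lower with BMH-21, and every BMH-21 library lay below every CX-5461 library. The share of all genes without such overlap was not counted. The differences were -1.87 for Nanog, -1.43 for Utf1, -1.15 for Sall4, -1.06 for Sox2 and -0.59 for Pou5f1 (adjusted p from 1.9e-34 to 3.5e-08). Of all genes tested, 67.2% were lower in this comparison, and the split of called genes moved from 84.9% to 56.6% lower on centring. After centring the differences were -1.44 for Nanog, -1.001 for Utf1, -0.72 for Sall4, -0.63 for Sox2 and -0.16 for Pou5f1, all with an adjusted p of 3.4e-03 or less. On that scale 40.6% of all genes were lower with BMH-21 and 31.1% higher.

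The change from 4 to 8 h was itself compared between inhibitors by an interaction term. All 5 genes had a lower course with BMH-21, as did 61.4% of all genes: Nanog by -1.34 ± 0.15, Utf1 by -1.33 ± 0.14, Sall4 by -1.04 ± 0.15, Pou5f1 by -0.76 ± 0.14 and Sox2 by -0.40 ± 0.15 (adjusted p 5.4e-14, 6.2e-14, 2.2e-09, 8.3e-07 and 0.012). After centring the first 4 were -0.91, -0.90, -0.61 and -0.33 (adjusted p of 1.8e-04 or less) and Sox2 was 0.03 (adjusted p 0.68). On that scale 36.2% of all genes were lower by this term and 24.0% higher. With quantile normalization the Sox2 term was called the other way, at 0.21 (adjusted p 9.7e-03), and that of Pou5f1 was -0.11 (adjusted p 0.024). The Sox2 term also missed the threshold without BMH-21 8 h replicate 2 (-0.32), CX-5461 4 h replicate 1 (-0.32) or CX-5461 8 h replicate 1 (-0.34). The split of called genes moved from 88.5% to 60.2% lower on centring.

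Ratios between members within a library do not depend on its scale factor, so the genes were also set against Pou5f1. The log2 ratio of Nanog to Pou5f1 was -1.66 ± 0.02 in untreated cells (SD, n = 3). At 2, 4 and 8 h it was -2.21 ± 0.02, -3.19 ± 0.03 and -2.85 ± 0.11 under BMH-21, against -2.11 ± 0.01, -2.49 ± 0.05 and -1.57 ± 0.04 under CX-5461. The 3 CX-5461 libraries at 8 h, -1.61 to -1.55, lay above the untreated -1.68 to -1.65. The ratio of Sox2 to Pou5f1 went from -1.32 ± 0.06 to -2.20, -2.55 and -1.57 under BMH-21. Under CX-5461 it was -2.04, -1.72 and -1.10 in turn, where the 8 h libraries (-1.18 to -1.0) again lay above the untreated (-1.40 to -1.29). Sall4 to Pou5f1 returned from -2.73 ± 0.07 at 4 h to -1.88 ± 0.06 at 8 h of CX-5461, overlapping the untreated -1.93 ± 0.02.

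Utf1 to Pou5f1 took another course. It went from -1.84 ± 0.02 through -2.0 and -2.54 to -3.03 ± 0.09 with BMH-21, so its mean was lower at 8 h than at 4 h, while the means of the other 3 ratios were higher. Under CX-5461 it was -1.93, -2.27 and -2.19 ± 0.05 in turn, with every 8 h library under the untreated ones. No test was run on the ratios.

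**Figure D4:**
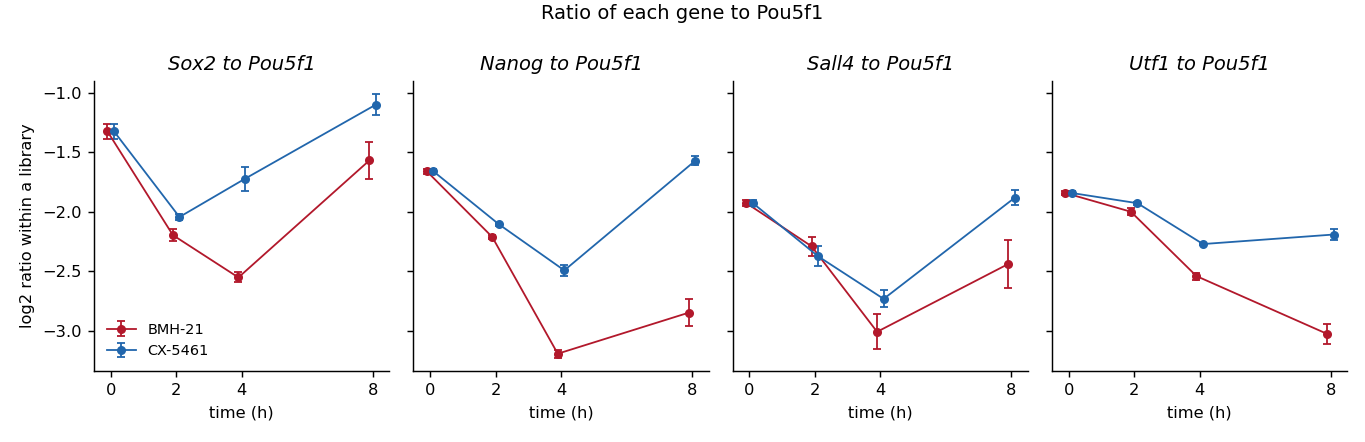
Log2 ratio of Sox2, Nanog, Sall4 and Utf1 to Pou5f1 within a library (y axis) against time in hours (x axis); points are means and bars SD of 3 libraries, BMH-21 red and CX-5461 blue, with the untreated point shared. The Nanog ratio ends at -2.85 (BMH-21) or -1.57 (CX-5461), from -1.66 in untreated cells.

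Proteins that bind or work with the core factors were read from a list of 27 genes, all tested. With BMH-21, 5, 20 and 26 of them were lower at 2, 4 and 8 h and 0 were higher, with median changes of -0.12, -0.53 and -1.11 beside medians of -0.07, -0.21 and -0.40 over all genes, of which 11.2%, 44.9% and 56.9% were lower. With CX-5461, 8, 24 and 16 were lower and 0, 0 and 1 higher, with medians of -0.22, -0.63 and -0.27 beside -0.18, -0.28 and 0.11 over all genes, of which 20.5%, 51.2% and 14.3% were lower. The deepest falls at 8 h of BMH-21 were Nr0b1 (-3.38), encoding the orphan receptor DAX1 that binds OCT4, and Prdm14 (-2.98), a repressor of differentiation genes. With CX-5461 the deepest were Nr0b1 (-1.22) and Trim28 (-0.85), a corepressor. Ctr9 of the PAF complex was the 1 gene that rose (0.34, and 0.13 after centring). The mean log2 level of Trim28 was also lower at 8 h of BMH-21, at 9.84 against 11.68 untreated. That of Prdm14 was 2.30 at 4 h and 4.62 at 8 h of CX-5461, against 4.70 untreated. After centring, 25 of the 27 were lower with each inhibitor at 8 h, beside 51.3% of all genes with BMH-21 and 44.7% with CX-5461.

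Genes known as targets of OCT4, SOX2 or NANOG made up a second list of 27, all tested. Most are genes of early embryonic cells, but others, such as Trp53, Rest, Cdyl, Slc2a3 and Spp1, are expressed in many tissues. With BMH-21, 10, 23 and 24 of them were lower and 1, 2 and 2 higher at the 3 times, with medians of -0.15, -0.80 and -1.48, beside the same all-gene medians and the 11.2%, 44.9% and 56.9% of all genes lower. With CX-5461, 16, 24 and 16 were lower and 1, 3 and 5 higher, with medians of -0.30, -0.85 and -0.36, where 20.5%, 51.2% and 14.3% of all genes were lower. After centring 21 were lower and 5 higher at 8 h, beside 44.7% of all genes lower. Lin28a, an RNA-binding regulator of let-7, fell by 3.11 at 8 h of BMH-21 and by 1.23 with CX-5461. Eras, a RAS-like protein of embryonic stem cells, fell by 3.06 and 0.96. Tert, the telomerase reverse transcriptase, rose by 0.66 and Nodal, a TGF-beta ligand, by 0.57 at 8 h of BMH-21. Their mean log2 levels were also higher at 8 h of CX-5461 than untreated, at 4.66 against 4.02 for Tert and 7.05 against 6.07 for Nodal.

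Compared directly at 8 h, 25 of the 27 targets were lower with BMH-21 than with CX-5461 and 0 were higher, where 67.2% of all genes were lower. On the centred scale 22 were lower and 2 higher, beside 40.6% of all genes lower. The targets Lefty1, Lefty2 and Tdgf1 rose against untreated cells with CX-5461 at 8 h but not with BMH-21. Lefty1, a secreted Nodal inhibitor, had the largest rise of the list with CX-5461 (2.25 ± 0.11, adjusted p 7.7e-40), while its BMH-21 change was -0.14 and did not pass the test. Its mean log2 level was 6.13 ± 0.08 in untreated cells, 6.95 ± 0.14 at 4 h and 8.38 ± 0.12 at 8 h of CX-5461. Lefty2 changed by -1.21 (BMH-21) and 1.39 (CX-5461), and Tdgf1, the Nodal co-receptor, by -0.58 and 0.37, each past the test in both directions.

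The other SOX, POU and SALL genes formed a list of 16, of which 15 were tested and Pou3f2 was too low. With BMH-21, 7, 14 and 13 were lower and 1, 0 and 0 higher at 2, 4 and 8 h (medians -0.29, -0.88 and -1.01), and with CX-5461, 9, 13 and 3 were lower and 0, 0 and 3 higher (medians -0.42, -0.78 and -0.14). Over all genes the medians were -0.07, -0.21 and -0.40, with 11.2%, 44.9% and 56.9% lower, for BMH-21, and -0.18, -0.28 and 0.11, with 20.5%, 51.2% and 14.3% lower, for CX-5461. Sox11 fell by 2.14 and Sox13 fell by 1.97 at 8 h of BMH-21. With CX-5461 Sox11 fell by 0.93 and Sall1, which is also in the partner list, by 0.42. Sox15 rose by 0.56 and Sox4 by 0.52, or by 0.35 and 0.31 after centring. Pou3f1, a POU factor of later epiblast, changed by -1.74 (BMH-21) and 0.46 (CX-5461), and Sox15 by -0.40 under BMH-21. On the centred scale Pou3f1 changed by -1.53 and 0.24, and Sox15 by -0.19 under BMH-21. After centring, 10 of the 15 were lower and 3 higher at 8 h of CX-5461, beside 44.7% of all genes lower. Sox21 shares its first letters with Sox2 but is a separate gene on chromosome 14. Its mean log2 level was 2.46 ± 0.25 in untreated cells and 3.06 ± 0.17 at 2 h of BMH-21, then 1.84 at 4 h and 1.45 at 8 h. With CX-5461 it was 2.08, 1.68 and 2.20 at 2, 4 and 8 h.

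**Figure D5:**
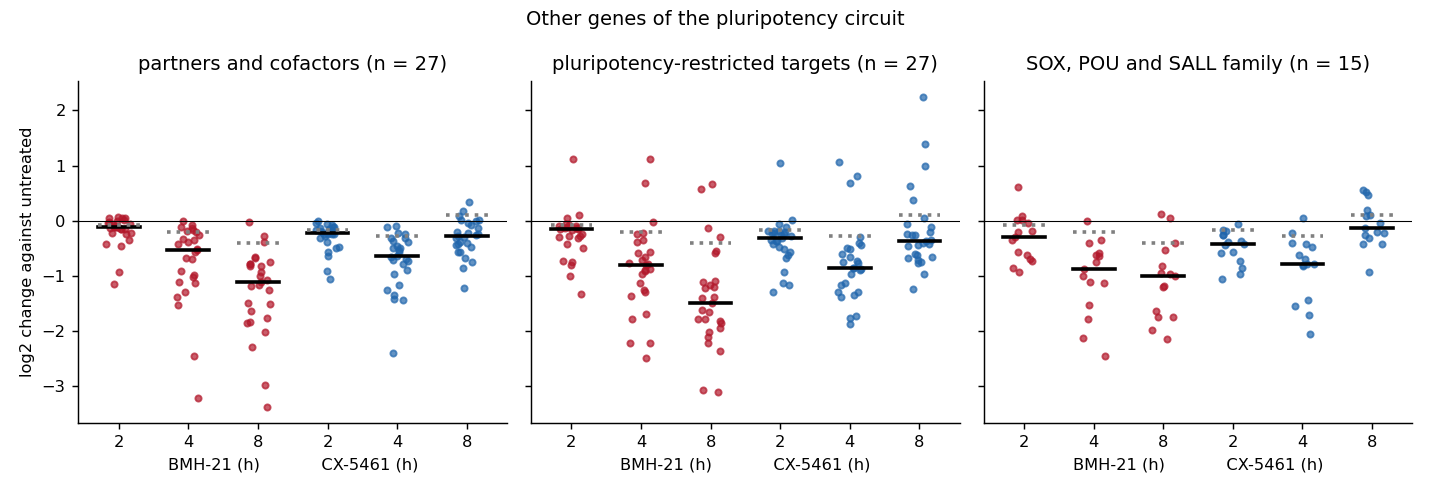
Log2 change against untreated cells (y axis) of each gene of 3 lists at 2, 4 and 8 h (x axis), BMH-21 in red and CX-5461 in blue; black lines are list medians and dotted lines the median over all genes tested. The medians of partners and targets at 8 h are -1.11 and -1.48 (BMH-21) against -0.27 and -0.36 (CX-5461).

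Markers of other cell types were read in the same libraries. The summed level of 6 embryonic stem cell markers, 3 of them members, ranged from 4690 to 5437 per 1000000 effective reads in untreated libraries, 2151 to 2253 at 8 h of BMH-21 and 4002 to 4289 at 8 h of CX-5461. Of 7 trophectoderm genes tested (8 listed), 4 were higher and 3 lower at 8 h of BMH-21 (4 and 2 after centring). At 8 h of CX-5461, 6 were higher and 0 lower (5 and 0 after centring). The shares of all genes at 8 h, which also serve the lists that follow, were 24.5% higher and 56.9% lower with BMH-21, and 35.1% higher and 14.3% lower with CX-5461. The sum of the trophectoderm genes went from 103.3 to 115.2 in untreated libraries to 136.3 to 161.0 and 160.4 to 182.4. Before that it was below the untreated range. It was 85.4 to 96.6 at 2 h and 69.2 to 85.1 at 4 h of BMH-21. With CX-5461 it was 83.4 to 100.5 at 2 h and 65.2 to 77.5 at 4 h. Most of the sum was Tfap2c, a transcription factor, at a mean log2 level of 6.20 in untreated cells, 6.88 at 8 h of BMH-21 and 6.85 at 8 h of CX-5461. The keratin genes Krt8 and Krt18 and the T-box gene Eomes had lower means at 8 h of BMH-21 than untreated, at 3.71 against 4.00, 2.83 against 3.57 and 1.08 against 2.18. Cdx2, the trophectoderm homeobox factor that opposes OCT4, went from 25 to 44 reads in untreated libraries to 118 to 191 at 8 h of BMH-21. With CX-5461 it went to 63 to 108, and the log2 changes were 1.36 and 1.26. Its untreated log2 values were -0.06 or less, so it entered the test, and the counts above, only through treated libraries. Whether trophectoderm cells had a part in the members' falls was not tested.

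The remaining lists were read in the same way. Primitive endoderm genes summed to 17.4 to 21.0 in untreated libraries, 18.5 to 22.5 in those of BMH-21 at 8 h and 22.3 to 23.1 in those of CX-5461, where 2 of 6 tested were higher. With BMH-21 at 8 h, 2 of the 6 were higher and 3 lower. Mesoderm genes summed to 6.0 to 6.9, then 6.3 to 7.8 and 7.0 to 7.8, with 1 and 2 of 5 higher and 2 and 0 lower. Among them Mesp1, with untreated log2 values of -1.1 or less, entered the test only through treated libraries. Neurectoderm genes summed to 216.8 to 239.2, then 106.9 to 121.0 and 270.9 to 283.5, with 0 and 1 of 4 tested higher and 2 and 1 lower. Most of the neurectoderm sum was Tubb3, at a mean log2 level of 7.42 untreated, 6.09 at 8 h of BMH-21 and 7.60 at 8 h of CX-5461. The means of Nes were 5.51, 5.39 and 6.22 in the same order, and those of Pax6 3.26, 0.22 and 2.80. Fibroblast genes, as of feeder cells, summed to 30.4 to 34.8, then 38.7 to 46.5 and 42.9 to 44.2, with 1 and 2 of 3 tested higher and 1 and 0 lower. Col1a1, a collagen gene, had a mean log2 level of 3.15 in untreated cells, 5.01 at 8 h of BMH-21 and 4.38 at 8 h of CX-5461, and Thy1, a surface protein, 4.48, 3.07 and 4.35. Lum held 0 or 1 read in untreated libraries and 0 to 2 at 8 h of BMH-21, and Postn went from 0 to 3 reads to 9 to 14. With so few genes in each list, counts of 1 or 2 higher are not read as different from the shares of all genes.

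The genes most like each member over the 21 libraries were sought among 8065 genes with a mean log2 level of at least 4. These correlations span the groups and share the library scale, so they are a description, with the centred value beside each. Nearest to Pou5f1 were Eif3g (r = 0.995, centred 0.990), Mcrs1 and Psmc5, and nearest to Utf1 were Pcbp4 (0.997, centred 0.998), Srm and Hmces. Nanog was nearest to Ubqln2 (0.994, centred 0.993), Slc9b1 and Pms1, and Sall4 to Rnf145 (0.991, centred 0.983), Hsf2 and Zmym1. Sox2 was nearest to Fzd7 (0.976, centred 0.963), Zfp217 and Birc2. No member was among the 3 nearest genes of another.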

How the data were processed

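Whole-culture poly(A) RNA-seq was done with a directional kit on 21 libraries, whose group and replicate number were read from their titles. The authors deposited 1 table of log2 values named as voom output, with no gene identifiers other than symbols. Per the submitters' processing notes, Trim Galore 0.5.0, TopHat2 2.1.1, R 4.0.5, DESeq2 1.30.1, edgeR 3.32.1, limma 3.46.0 and the mm10 build were used, with no roles given. The counting program, annotation, filters and origin of the scale factors are not given in the sources used here. Each log2 value gave whole reads, to within 1.7e-08, when the voom offset of 0.5 reads was removed. Replicate pairs differed by more than sampling noise (chi-square per degree of freedom 2.65 to 27.3), and all 21 were counted separately.

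Group means were fitted to the 21 libraries together in limma 3.58.1 under R 4.3.3, using the log2 values as deposited, a mean-variance trend, two-sided tests and Benjamini-Hochberg adjustment over 14666 genes at a threshold of 0.05. Genes had to exceed a log2 value of 0 in at least 3 libraries, which left 6234 out. The variance prior carried 111.5 degrees of freedom, and own SDs of the members (0.09 to 0.14) were near the moderated ones (0.12 to 0.13). The prior outweighed the 14 residual degrees of freedom and fell to 8.5 after centring. The very small p-values on the deposited scale therefore rest mostly on a spread pooled over genes. Separate cultures are not stated for the replicates, so p-values refer only to the spread between these libraries, which may be technical. Replicate numbers do not pair the libraries: of 63 same-numbered pairs, 1 correlated above 0.1. Scale alternatives were centring, median-ratio factors and quantile normalization. Others were filters, an offset of 5 reads, voom weights, no variance trend, fits of only the groups compared, a replicate block and leaving out each library.

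The members and lists were chosen with earlier results of these data known. Genes named from a list were the 2 largest rises and falls at 8 h with each inhibitor, among those past the threshold with no overlap with untreated libraries, and those opposite between inhibitors. Lefty1 with BMH-21, Cdx2, Tfap2c, Krt8, Krt18, Eomes, Col1a1, Thy1, Lum, Postn and the second values of named genes were added after they were seen. Figures were drawn with matplotlib 3.10.9.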

Additional observations from a re-analysis of the deposited data

Results flagged for a closer look

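The change from 4 to 8 h differed between the inhibitors for each of the 5 genes by the interaction term in limma, each being lower with BMH-21 on the deposited scale. The differences were -0.76 for Pou5f1, -0.40 for Sox2, -1.34 for Nanog, -1.04 for Sall4 and -1.33 for Utf1. The Sox2 value did not hold: it was 0.03 after centring (adjusted p 0.68), was called the other way with quantile normalization (0.21, adjusted p 9.7e-03), and lost its call without BMH-21 8 h replicate 2 (-0.32), CX-5461 4 h replicate 1 (-0.32) or CX-5461 8 h replicate 1 (-0.34). In Nanog the inhibitors went opposite ways, down by 0.37 and up by 0.97, with no overlap of the 4 h and 8 h libraries in either, although with quantile normalization the BMH-21 step was -0.09 (adjusted p 0.13). Of all genes tested, 61.4% were lower by the same term.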

How the results depend on the processing

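Over the 70 member results (5 genes in 14 comparisons), 1220 recomputed values kept direction and call in 1117, lost the call in 48, gained it in 18 and changed sign in 37. The filters, no variance trend, fits of only the groups compared and the replicate block on deposited values kept the estimate. They could change only the call. The 5 genes kept their fall and their call at 8 h of BMH-21 in all 17 alternatives run, but quantile normalization made the changes of Pou5f1, Sox2 and Sall4 smaller, at -0.30, -0.49 and -0.85 in place of -0.94, -1.18 and -1.45. It also ended the calls of Nanog from 4 to 8 h of BMH-21 (-0.09, adjusted p 0.13) and of Pou5f1 at 4 h of CX-5461 (-0.06, adjusted p 0.052). With the replicate block, 3 in place of 4 members were called at 2 h of CX-5461 (Utf1, adjusted p 0.055) and 3 in place of 4 from 2 to 4 h of CX-5461 (Pou5f1, adjusted p 0.055). The block changed no other member call, and 1 of 21 libraries correlated best with its own number. The 4 members called at 8 h of CX-5461 became 2 with quantile normalization and 2 to 4 on leaving out 1 library, being 2 without untreated replicate 2 or CX-5461 8 h replicate 2. For BMH-21 against CX-5461 at 4 h the count went from 2 to 4 with median-ratio factors and with quantile normalization. From 4 to 8 h of CX-5461 it went from 3 to 5 with centring, with median-ratio factors and with the replicate block on centred values, as Pou5f1 and Utf1 were then called lower. The cause of these moves was not tested.

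Sign changes with centring, with the same values in the replicate block on centred values, were 0.015 for Pou5f1 at 2 h of BMH-21, -0.063 for Nanog and -0.027 for Utf1 between inhibitors at 2 h, -0.32 for Pou5f1 and -0.24 for Utf1 from 4 to 8 h of CX-5461, and 0.033 for the Sox2 interaction. Median-ratio factors gave 0.022 and 0.0061 for Pou5f1 at 2 h of BMH-21 and CX-5461, -0.091 for Nanog and -0.056 for Utf1 between inhibitors at 2 h, 0.031 for Sall4 from 4 to 8 h of BMH-21, -0.31 for Pou5f1 and -0.23 for Utf1 from 4 to 8 h of CX-5461, and 0.14 for the Sox2 interaction. Quantile normalization gave 0.094 for Sox2 at 8 h of CX-5461, -0.0099 for Pou5f1, -0.085 for Nanog and -0.064 for Utf1 between inhibitors at 2 h, -0.013 for Pou5f1 at 4 h, 0.16 for Sall4 from 4 to 8 h of BMH-21, -0.11 for Pou5f1 and -0.10 for Utf1 from 4 to 8 h of CX-5461, and 0.21 for the Sox2 interaction, called in the opposite direction (adjusted p 9.7e-03). On leaving out 1 library the differences between inhibitors at 2 h ran from -0.089 to 0.050 for Sox2, -0.041 to 0.084 for Nanog and -0.0065 to 0.12 for Utf1, that of Sall4 at 4 h from -0.16 to 0.0016, and the Sox2 step from 2 to 4 h of CX-5461 from -0.015 to 0.19.

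Counts over all genes moved by over 1.5 times at 2 h of BMH-21, from 2891 to 4634 to 5285 under the other scales, and at 2 h of CX-5461, from 4096 to 2370 to 2492 without untreated replicate 1 or 2 or CX-5461 2 h replicate 2 or 3. Between inhibitors, 585 at 2 h became 1847 to 2261 under the other scales and 361 to 372 without BMH-21 or CX-5461 2 h replicate 2 or 3, and 2617 at 4 h became 6116 to 6719 and, without CX-5461 4 h replicate 3, 1687. Partners called went from 5 to between 11 and 13 at 2 h of BMH-21 under the other scales, from 8 to 13 or 16 at 2 h of CX-5461 without untreated replicate 3 or CX-5461 2 h replicate 1, and from 17 to 26 at 8 h of CX-5461 with centring. Family genes called at 8 h of CX-5461 went from 6 to 12 or 13 under the other scales.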
